A study of Mus musculus with 8 samples.

Results

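The RUNX family and its partner CBFβ were followed at the RNA level in natural killer (NK) cells. The 4 genes, *Runx1*, *Runx2*, *Runx3* and *Cbfb*, were chosen by name from the 48321 gene symbols of the count files, because RUNX/CBFβ complexes bind the *Ccl5* enhancers that the study investigates. All 4 were among the 12595 symbols with enough reads to be tested. The libraries were prepared from freshly sorted CD45+ TCRb- NK1.1+ cells of C57/Bl6 mice, with 2 libraries in each of 4 groups: lung *Wt*, lung KO, spleen *Wt* and spleen KO. KO mice are homozygous for a deletion of the *Ccl5* proximal enhancer (*Ccl5*ΔPE/ΔPE), which the study made in a mouse line by CRISPR/Cas9 and which removes RUNX recognition sites, and the labels give no treatment, age or sex. Whether the 2 libraries of a group come from separate mice is not given in the sources used here, so p-values measure only the spread between these libraries, which may be technical.

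RUNX proteins bind DNA through the Runt domain, and CBFβ, which does not touch DNA itself, joins them and strengthens that binding. The complex activates or represses depending on the gene. For repression, the C-terminal VWRPY motif of RUNX proteins recruits TLE (Groucho) corepressors. RUNX1 is needed for the formation of blood stem cells, RUNX2 is best known for bone formation, and RUNX3 is a main family member of cytotoxic lymphocytes such as CD8+ T cells and NK cells. Because all 3 share CBFβ, the level of *Cbfb* bears on every RUNX protein in a cell, and transcript levels alone do not show how much complex forms.

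The annotated starts of the *Runx* genes carry the recognition letters of their own proteins, and the stretches around these letters are shown because all 3 genes share one of them. Windows of 300 bases around annotated starts (250 before and 50 after) were taken from RefSeq on GRCm38.p6 and searched on both strands for the letters AACCACA or AACCGCA or GACCACA or GACCGCA. *Runx1* and *Runx3* have 2 windows each, and *Runx2* and *Cbfb* have 1. Capitals mark the matches. Each stretch is 30 bases, written 5′ to 3′ on the strand of its gene.
Runx1, upstream start, chr16:92826025-92826054, minus strand: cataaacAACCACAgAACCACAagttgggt
Runx2, chr17:44814583-44814612, minus strand: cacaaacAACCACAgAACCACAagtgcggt
Runx2, chr17:44814690-44814719, minus strand: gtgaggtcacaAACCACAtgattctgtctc
Runx3, upstream start, chr4:135120503-135120532, plus strand: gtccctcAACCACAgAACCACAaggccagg

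The same pair of letters, 2 copies of AACCACA with a single G between, stood in the upstream window of each *Runx* gene. In *Runx1* and *Runx2* the pair began 27 and 22 bases after the annotated start, and the stretches were identical at 27 of 30 bases. In *Runx3* it began 135 bases before the start, and its stretch matched that of *Runx1* at 19 and that of *Runx2* at 21 of 30 bases. The *Runx2* window held a further single match 81 bases before the start. The downstream windows of *Runx1* and *Runx3* and the window of *Cbfb* held 0 matches, which says only that these letters are not in those windows. Among 32851 windows of this length, 4135 (12.6%) held at least 1 match and 266 (0.81%) held at least 2. The pair as written occurred in 4 windows (0.0122%), those of the 3 *Runx* genes and that of Gm16225, whose window overlaps the *Runx3* window on the opposite strand. A match is a description of letters and was not tested for binding here.

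**Figure D1:**
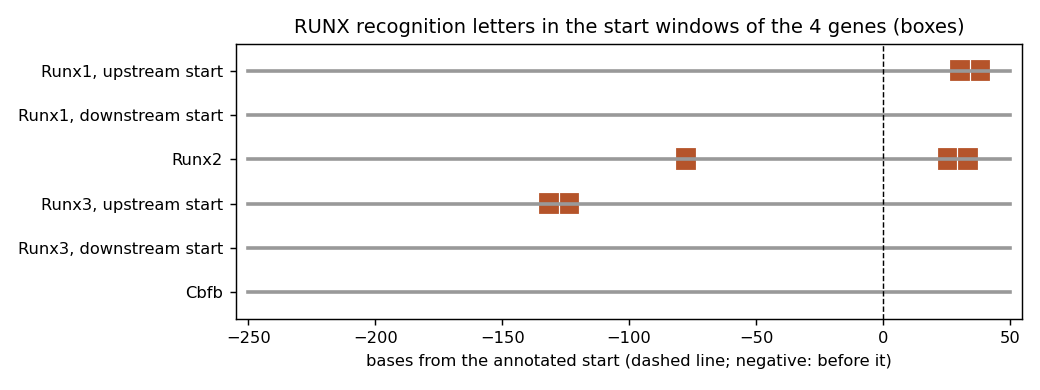
Position of RUNX recognition letters (boxes, 7 bases each) in the 6 annotated start windows of the 4 genes, in bases from the start (dashed line), each gene read in its own direction. The upstream windows of Runx1, Runx2 and Runx3 hold 2, 3 and 2 matches, and the other 3 windows hold 0.

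In GRCm38, *Runx1* (ENSMUSG00000022952.17) spans chr16:92601466-92826149 and *Runx2* (ENSMUSG00000039153.16) spans chr17:44495987-44814797, both on the minus strand. *Runx3* (ENSMUSG00000070691.10) spans chr4:135120652-135177990 and *Cbfb* (ENSMUSG00000031885.14) spans chr8:105170674-105217989, both on the plus strand. The union of annotated exons is 12025 bases in *Runx1*, 8837 in *Runx2*, 5003 in *Runx3* and 3480 in *Cbfb*. The exon GC content is 42.5% in *Cbfb*, 46.4% in *Runx1*, 50.3% in *Runx2* and 56.0% in *Runx3*, against a median of 48.8% over the genes tested, so that *Runx3* sits at the 85.5th percentile.

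The libraries held between 3132963 and 26482366 reads on genes, the deepest and the shallowest both from spleen KO. *Ccl5*, which checks the genotype, was at 15600 to 19500 counts per 1000000 reads (CPM) in the 4 *Wt* libraries and at 2430 to 3190 CPM in the 4 KO libraries. CPM were taken over the reads on genes, after TMM scaling of the library sizes. All 8 NK cell markers examined (*Ncr1* and *Klrb1c* among them) had reads in every library, with a summed level of 36700 to 52000 CPM, while of the 6 myeloid markers *S100a8*, *S100a9* and *Adgre1* were at 0 in all 8 and *Lyz2* (1.63 to 25.1 CPM), *Cd68* (8.38 to 21.5 CPM) and *Csf1r* (2.99 to 5.95 CPM) had reads in all 8. Their sum was 32.4 to 41.4 CPM in lung and 19.9 to 27.7 CPM in spleen. The trend of a library's counts with gene GC content, as a log2 slope per 10 GC points, was negative in lung *Wt* (−0.143 and −0.123) and spleen KO (−0.133 and −0.144) and positive in lung KO (0.138 and 0.175) and spleen *Wt* (0.143 and 0.085). The slope therefore moves with the genotype in opposite directions in the 2 organs, and each comparison also gives values with this trend removed where they change a call. Fewer cells of a type and less RNA per cell cannot be told apart in these bulk libraries.

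*Cbfb* was the most abundant of the 4 transcripts per length and *Runx2* the least abundant in every library. Per kilobase of exon, the group means of *Cbfb* were 82.3 to 93.6 CPM per kb, those of *Runx3* 16.0 to 16.5, those of *Runx1* 7.95 to 10.6 and those of *Runx2* 3.62 to 4.96. *Runx3* thus exceeded *Runx1* in all 4 groups on this scale, with the SD of 2 libraries at most 1.3 CPM per kb for *Runx3* and 0.21 for *Runx1*. The order of these neighbours depended on the length used. With the longest annotated transcript (5861 bases for *Runx1*, 3884 for *Runx3*), *Runx1* and *Runx3* were at 21.8 and 20.6 CPM per kb in lung *Wt* and both at 21.2 in lung KO, whereas in spleen *Runx3* (21.1 in *Wt*, 21.3 in KO) remained above *Runx1* (16.7 and 16.3). Which start each transcript used cannot be read from counts per gene.

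**Figure D2:**
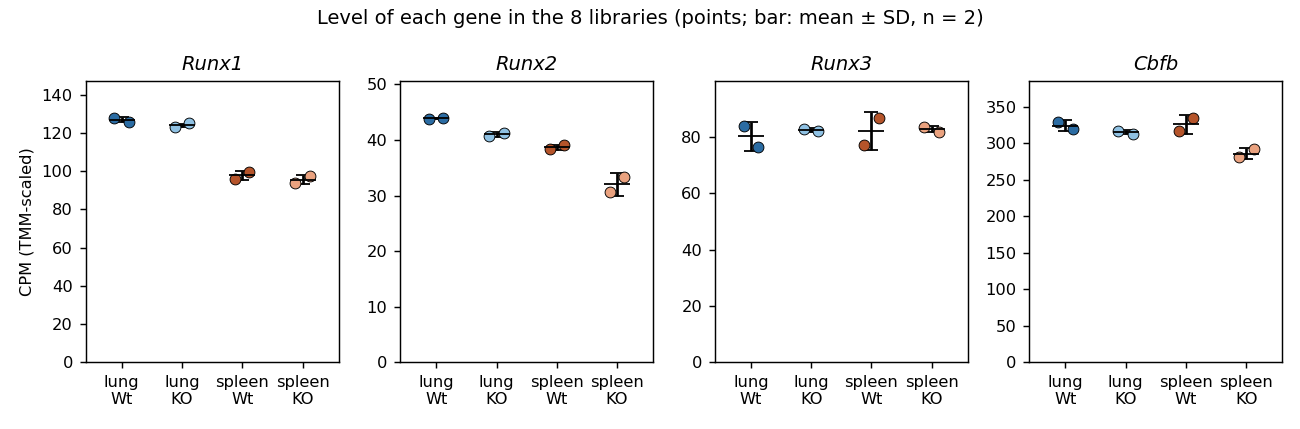
CPM of each gene in the 8 libraries (points), with the mean and SD of the 2 libraries of a group (bars); each panel has its own axis, starting at 0. Runx1 sits at 123 to 128 CPM in the 4 lung libraries and at 93.8 to 99.6 CPM in the 4 spleen libraries, while the Runx3 libraries lie between 76.5 and 86.8 CPM without order.

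The first comparison asked whether loss of the enhancer went with another transcript level of the RUNX and CBFβ genes in lung NK cells. It did not pass the test for any of the 4 genes. All were within 0.1 of 0 on the log2 scale, and 0 of 4 were called by edgeR at a false discovery rate (FDR) of 0.05, against 55.6% of all genes tested in this comparison. At an unadjusted p under 0.05 the count was also 0, and DESeq2 called 0. *Runx1* had 128 and 126 CPM in lung *Wt* and 123 and 125 CPM in lung KO. The 2 groups did not overlap, and the log2 fold change was −0.04 (95% interval −0.16 to 0.08, edgeR adjusted p = 0.59). *Runx2* had 43.8 and 44 CPM in *Wt* and 40.7 and 41.3 CPM in KO, a log2 fold change of −0.1 (−0.28 to 0.09, adjusted p = 0.39). The KO libraries were the lower ones, by an amount inside the error of the fit.

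*Runx3*, the family member tied most closely to cytotoxic lymphocytes, had 83.9 and 76.5 CPM in lung *Wt* and 82.9 and 82.0 CPM in lung KO. The KO values fell between those of *Wt*, and the log2 fold change was 0.02 (−0.13 to 0.17, adjusted p = 0.83). *Cbfb* had 329 and 319 CPM in *Wt* and 317 and 313 CPM in KO, with a log2 fold change of −0.05 (−0.14 to 0.05, adjusted p = 0.4). In lung, 3 of the 4 genes had groups that did not overlap, as did 76% of all genes tested. The intervals bound a change of *Cbfb* to between 0.908- and 1.04-fold and one of *Runx3* to between 0.914- and 1.13-fold, if the GC trend is left in place. With the trend removed, *Runx3* was lower in lung KO at a log2 fold change of −0.29 (adjusted p = 8e-04) and *Runx2* at −0.21 (adjusted p = 0.046), so that 2 of the 4 genes were called, against 54.6% of all genes. The call for *Runx3* in lung therefore depends on whether the GC trend is taken out. The summed level of type 1 innate lymphoid cell markers also differed with genotype in lung (107 to 110 CPM in *Wt*, 60.4 to 60.9 in KO, with reads for 5 of 5 markers in every library), as did that of NK cell markers (50600 to 52000 and 39900 to 40500 CPM) and of lung epithelial markers (240 and 312 to 346 CPM). From *Wt* to KO, markers within each sum did not all move the same way. Among NK markers *Ncr1*, *Klrb1c*, *Nkg7*, *Klrk1* and *Gzma* fell (*Gzma* from 25300 and 24200 to 17900 and 18000 CPM). Only *Prf1* rose (1460 and 1550 to 2470 and 2550), and *Eomes* and *Tyrobp* overlapped between genotypes. Among epithelial markers *Sftpc* rose (152 and 155 to 251 and 281 CPM) while *Scgb1a1* fell (87.1 and 83.3 to 60.3 and 63.8). Of the innate lymphoid markers *Il7r* (44.2 and 44.7 to 16.1 and 17.7) and *Cxcr6* (33.6 and 30.5 to 19 and 18.7) fell. *Cd200r1* and *Tnfsf10* also fell, and only *Itga1* rose (7.82 and 8.53 to 11.8 and 9.1). The platelet markers *Pf4* (8.56 and 8.27 to 1.23 and 0.543 CPM) and *Ppbp* (21.1 and 20.2 to 4.7 and 6.11) fell. The erythroid markers *Hba-a1* and *Hbb-bs* rose (*Hbb-bs* from 13.2 and 16.5 to 28.6 and 31.6 CPM). Of the myeloid markers *Lyz2* rose (12.2 and 15.8 to 23.5 and 25.1), *Cd68* fell (15.6 and 14.2 to 8.38 and 11.1) and *Csf1r* overlapped. The part of these markers in the values of the 4 genes was not tested.

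In spleen NK cells, *Cbfb* and *Runx2* were lower in KO, by small amounts, and *Runx1* and *Runx3* did not pass the test. Calls were made for 2 of the 4 genes, both lower, against 57.1% of all genes tested in either direction and 28.9% lower. *Cbfb*, the shared partner, had 317 and 335 CPM in spleen *Wt* and 281 and 292 CPM in spleen KO. All *Wt* values lay above all KO values, with a fold of 0.882 (0.829 to 0.94), a log2 fold change of −0.18 (SE 0.04) and an adjusted p of 0.00054. *Runx2*, which had the fewest reads of the family (94 in the shallowest library), had 38.4 and 39.1 CPM in *Wt* and 30.6 and 33.4 CPM in KO. These groups also did not overlap, with a fold of 0.849 (0.753 to 0.959), a log2 fold change of −0.24 (SE 0.09) and an adjusted p of 0.019.

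*Runx1* had 96.2 and 99.6 CPM in spleen *Wt* and 93.8 and 97.4 CPM in spleen KO. The groups overlapped, and the log2 fold change was −0.03 (−0.14 to 0.09, adjusted p = 0.74). *Runx3* had 77.3 and 86.8 CPM in *Wt* and 83.4 and 81.9 CPM in KO, with a log2 fold change of −0.02 (−0.15 to 0.11, adjusted p = 0.82). Here the 2 *Wt* libraries stood further apart than either did from KO. In spleen, 2 of the 4 genes had groups that did not overlap, against 73.8% of all genes. The lower *Cbfb* lost its call without the second spleen *Wt* library (log2 fold change −0.13, adjusted p = 0.061), and *Runx2* lost its call without that library (adjusted p = 0.18), without the second spleen KO library (adjusted p = 0.083), in DESeq2 (adjusted p = 0.21), without a count filter (adjusted p = 0.05) and with the GC trend removed (−0.18, adjusted p = 0.07). With the trend removed *Cbfb* was at −0.29 (adjusted p = 1.2e-07) and *Runx3* at 0.22 (adjusted p = 0.0035), the opposite sign to its value in lung, so that again 2 of the 4 genes were called, against 55.6% of all genes. Under an assumed coefficient of variation of 0.2 between replicates, in place of the estimated one (2.5% in common), 0 of the 4 genes were called in any comparison. The summed NK cell markers were at 36700 to 37400 CPM in spleen *Wt* and 47800 to 50300 CPM in spleen KO, and the T cell markers at 156 to 157 and 131 to 137 CPM. From *Wt* to KO, *Cd3e* fell (31.9 and 32.4 to 7.49 and 11.1 CPM), as did *Cd3g* (61.3 and 60.8 to 57.3 and 55.2). *Cd3d* rose (59.1 and 62.2 to 72 and 64.3), and the other T cell markers were at most 2.24 CPM in any library. Every NK marker but *Prf1* rose, *Gzma* among them (15700 and 15200 to 22800 and 21100 CPM). *Prf1* fell (1300 and 1320 to 937 and 936). Type 1 innate lymphoid cell markers summed to 157 to 170 CPM in spleen *Wt* and 135 to 145 CPM in spleen KO. Among them *Il7r* (90 and 94.7 to 70 and 71.4) and *Itga1* (9.22 and 8.51 to 2.28 and 3.82) fell. *Cxcr6* rose (41.4 and 43.3 to 44.3 and 52.9), and *Cd200r1* and *Tnfsf10* overlapped between genotypes. The part of these markers in the lower *Cbfb* and *Runx2* was not tested.

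**Figure D3:**
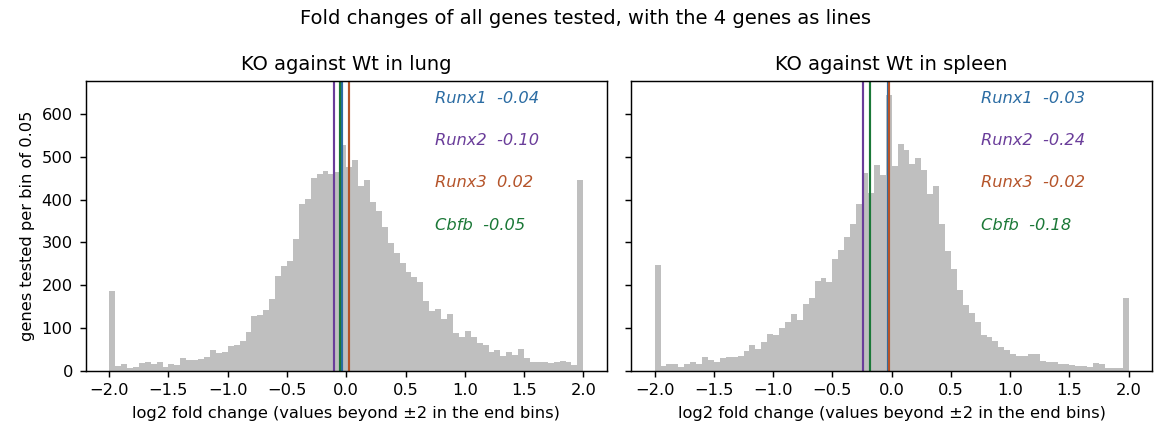
Histograms of the log2 fold change of KO against Wt for the 12595 genes tested, in lung and in spleen (values beyond ±2 in the end bins), with lines for the 4 genes. The lines lie between −0.10 and 0.02 in lung and between −0.24 and −0.02 in spleen, near the middle of both distributions.

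These differences were small next to those of other genes. In lung, between 85.0% (*Runx2*) and 96.6% (*Runx3*) of the genes tested had a larger absolute log2 fold change than the member, and in spleen between 62.7% (*Runx2*) and 95.5% (*Runx3*). *Ccl5* itself had a log2 fold change of −2.61 in lung and −2.67 in spleen. Deeper sequencing would narrow the counting error, which was 10% of the value for *Runx2* and 3.4% for *Cbfb* in the library with their fewest reads.

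Whether the effect of the deletion differed between the organs was tested directly, as the effect in lung minus that in spleen. In edgeR 0 of the 4 genes passed an FDR of 0.05, against 61.6% of all genes tested, while 1 (*Cbfb*) had an unadjusted p under 0.05, and DESeq2 called 0. For *Cbfb* the difference was 0.14 on the log2 scale (0.01 to 0.26, adjusted p = 0.059). For *Runx2* it was 0.14 (−0.12 to 0.39, adjusted p = 0.35), for *Runx1* −0.01 (−0.18 to 0.15, adjusted p = 0.9) and for *Runx3* 0.04 (−0.16 to 0.24, adjusted p = 0.74). The lower *Cbfb* and *Runx2* in spleen are therefore not shown to be particular to spleen. With the GC trend removed the difference was −0.51 for *Runx3* (adjusted p = 1.8e-05) and 0.3 for *Cbfb* (adjusted p = 2.9e-05), 2 calls among the 4 genes against 59.1% of all genes.

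The largest fitted difference in the family was between organs. *Runx1* was higher in lung than in spleen NK cells in both genotypes, and the 4 lung libraries all lay above the 4 spleen libraries. In *Wt* (128 and 126 against 96.2 and 99.6 CPM) the fold was 1.3 (1.19 to 1.41), a log2 fold change of 0.37 (SE 0.06, adjusted p = 2.3e-06). In KO (123 and 125 against 93.8 and 97.4 CPM) it was 1.28 (1.19 to 1.39), a log2 fold change of 0.36 (adjusted p = 7.2e-07). *Runx1* kept its call in 19 of 20 alternative analyses in each genotype, with log2 fold changes between 0.27 and 0.4 in *Wt* and between 0.34 and 0.41 in KO, and lost it under the assumed coefficient of variation of 0.2 (adjusted p = 0.46 and 0.41). Even so it is not a large difference here, since 49.7% of the genes tested in *Wt* had a larger one.

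In *Wt*, as fitted without a GC correction, *Runx1* was the only one of the 4 genes called between organs, against 57% of all genes. *Runx2* was at 43.8 and 44 CPM in lung and 38.4 and 39.1 CPM in spleen (log2 fold change 0.18, −0.01 to 0.36, adjusted p = 0.11). *Runx3* (−0.04, −0.18 to 0.11, adjusted p = 0.68) and *Cbfb* (−0.01, −0.1 to 0.08, adjusted p = 0.85) had overlapping libraries in the 2 organs. The libraries of the other 2 genes did not overlap, as was so for 75.6% of all genes. Removal of the GC trend gave 3 calls among the 4 genes, against 56.2% of all genes, since *Runx2* was then at 0.26 (adjusted p = 0.015) and *Cbfb* at −0.11 (adjusted p = 0.024).

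In KO, 3 of the 4 genes were called, all higher in lung, against 65.6% of all genes in either direction and 33.9% higher. Besides *Runx1*, *Runx2* was 1.24-fold higher (1.1 to 1.4, log2 fold change 0.31, adjusted p = 0.0016) and *Cbfb* 1.09-fold higher (1.03 to 1.16, log2 fold change 0.12, adjusted p = 0.013). The libraries of these 3 genes did not overlap between organs, against 79.4% of all genes. *Runx3* had a log2 fold change of 0 (−0.13 to 0.14, adjusted p = 0.97). These organ comparisons use the same spleen KO libraries as the comparison of genotypes, so the lower *Cbfb* and *Runx2* of spleen KO enter both. *Cbfb* lost its call here in DESeq2 (adjusted p = 0.075) and without either lung KO library or the first spleen KO library (adjusted p = 0.053, 0.052 and 0.051). *Runx2* lost its call in DESeq2 (adjusted p = 0.056). With the GC trend removed *Runx3* was lower in lung KO than in spleen KO, at −0.36 (adjusted p = 6.2e-06), and all 4 genes were called, against 64.6% of all genes.

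**Figure D4:**
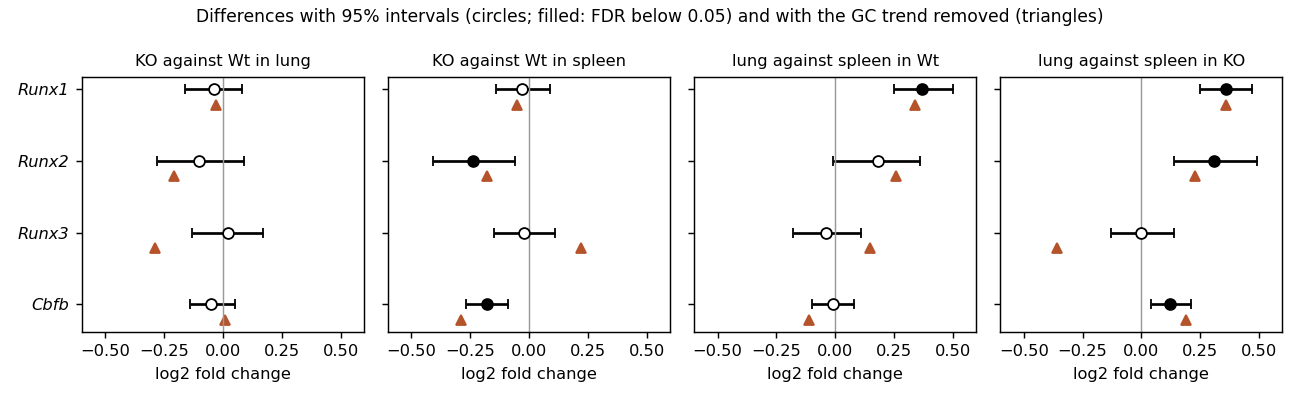
Log2 fold changes of the 4 genes in 4 comparisons, as fitted (circles with 95% intervals, filled where the FDR is below 0.05) and with each library's GC trend removed (triangles). Runx1 is higher in lung by 0.37 and 0.36 with its triangle inside the interval, while the Runx3 triangle lies outside the interval in 4 panels.

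Markers of other cell types also moved with the organ. The summed T cell markers were at 38.8 to 47.1 CPM in lung and 131 to 157 CPM in spleen. This sum was carried by *Cd3d*, *Cd3e* and *Cd3g*, with *Cd4*, *Cd8a*, *Cd8b1* and *Cd5* each at most 2.24 CPM in any library. The B cell markers were at 5.17 to 8.28 CPM in lung and 38.1 to 44.3 CPM in spleen. Lung epithelial markers were at 240 to 346 CPM in lung and at most 0.65 CPM in spleen, although the CD45+ gate should remove epithelium. The lung sum was carried by the secretory transcripts *Sftpc* (152 to 281 CPM) and *Scgb1a1* (60.3 to 87.1 CPM), with *Cldn18* at 0.136 to 1.03 CPM and *Epcam* at 0 in 3 of the 4 lung libraries and 0.407 CPM in the other. Platelet and erythroid markers were at 43.1 to 52.2 CPM in lung and 1.75 to 2.98 CPM in spleen. Type 1 innate lymphoid cell markers were at 60.4 to 110 CPM in lung and 135 to 170 CPM in spleen. Of these, *Il7r* and *Cxcr6* were higher in spleen, and *Itga1*, *Cd200r1* and *Tnfsf10* overlapped between organs. The part of all these transcripts in the organ difference of *Runx1* was not tested.

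The make-up of the family followed from these levels. Of the summed *Runx* CPM per kb of exon, *Runx3* took 49.7 to 52.7% in the lung libraries and 55.6 to 59.7% in the spleen libraries. *Runx2* took 12.4 to 16.2% across the libraries. These shares depended on the length used. With the longest annotated transcript, *Runx3* took 41 to 43.9% in lung, where *Runx1* took 43.2 to 44.9%, and 47.1 to 50.9% in spleen. Within a library, the ratio of *Runx3* to *Runx1* in lung was 1.57 and 1.45 for the *Wt* pair and 1.62 and 1.58 for the KO pair. In spleen it was 1.93 and 2.09 for *Wt* and 2.14 and 2.02 for KO. All 4 spleen values exceeded all 4 lung values, with means of 2.05 and 1.56, a ratio of 1.31. The two-sided exact permutation test of 4 against 4 libraries, both genotypes pooled, gave p = 0.0286, the smallest it allows. After adjustment over the 3 ratios tested it was 0.0858 and did not pass, as 1 ratio alone at the smallest p could not. This ratio was chosen after the levels were seen. After removal of the GC trend the ratio was 1.37 to 1.72 in lung and 1.77 to 2.38 in spleen, again without overlap. With the longest transcript as length and the trend in place, it was 0.913 to 1.01 in lung and 1.21 to 1.34 in spleen.

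*Cbfb* transcripts exceeded the summed *Runx* transcripts per kb in every library. In lung the ratio was 2.92 and 2.98 for *Wt* and 2.9 and 2.86 for KO. In spleen it was 3.27 and 3.2 for *Wt* and 2.89 and 2.97 for KO. Spleen *Wt* stood highest, and the organs overlapped (exact permutation p = 0.2). The *Runx2* share did not separate the organs either (exact permutation p = 0.229).

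**Figure D5:**
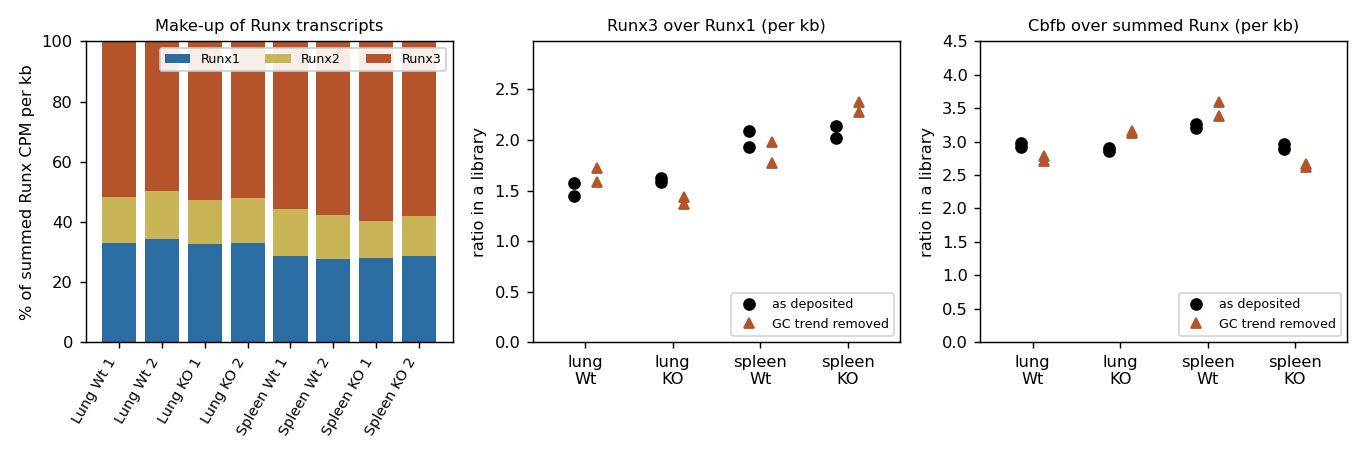
Left, share of each Runx gene in the summed Runx CPM per kb of exon of each library. Middle and right, ratio of Runx3 to Runx1 and of Cbfb to summed Runx per kb of exon in each library, as deposited (circles) and with the GC trend removed (triangles). On this scale the Runx3 to Runx1 ratio as deposited is 1.45 to 1.62 in lung and 1.93 to 2.14 in spleen.

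Across the 8 libraries, *Runx2* varied with *Cbfb* (Pearson r = 0.857 of log2 CPM) and with *Runx1* (r = 0.836), *Runx1* and *Cbfb* had r = 0.5, and *Runx3* had r between −0.22 and 0.0781 with the others. These are descriptions over 8 points that share 4 groups. Among 5094 genes of at least moderate level, the closest patterns to *Runx1* were those of *Gbp4* (r = 0.993), *P2ry10* and *Nisch* (0.991 each). *Zdhhc18* (0.986) and *Tmem123* (0.985) were among the nearest to *Runx2*, and *Slc35a5* (0.987), *Plaa* (0.977) and *Pramef8* (0.97) were nearest to *Cbfb*. For *Runx3*, whose libraries differed little, the nearest were *Tmem127* (0.906), *Mtpn* (0.857) and *Pcmtd1* (0.848).

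Several annotated genes overlap the members. An antisense gene, Gm26626, shares 106 exonic bases with *Runx1* and had 1 to 34 reads per library, and *Runx2os1* shares 519 with *Runx2* and had 3 to 67 reads. Without a known strand setting, reads of a gene and its antisense partner cannot be told apart in the shared bases. The counts of both were far below those of *Runx1* (288 to 2547 reads) and *Runx2* (94 to 874 reads). Counts per gene do not show how many reads fell in the shared bases. *Supt3*, which spans the start of *Runx2* on the opposite strand, and Gm16224, within *Runx3*, share 0 exonic bases with them and had 3 to 130 and 3 to 73 reads. The other 5 overlapping genes, *Runx2os2*, *Runx2os3*, n-R5s27, Gm24629 and Gm22063, had 0 or 1 read.

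The corepressors that RUNX proteins recruit were next examined. Over all genes tested, 29.2% were higher and 26.4% lower in lung KO, 28.2% and 28.9% in spleen KO, 27.7% and 29.3% in lung against spleen of *Wt*, and 33.9% and 31.7% in lung against spleen of KO, and the counts below stand beside these shares. Of 6 TLE genes, 4 were tested. In lung KO 2 were higher, *Tle4* (48.3 to 49.0 CPM in *Wt*, 62.5 to 64.6 in KO, log2 fold change 0.38, adjusted p = 0.00025) and *Tle3* (0.3, adjusted p = 0.0023), and 0 were lower, with a median of 0.22 against 0.02 over all genes. In spleen KO 0 were higher and 2 were lower, *Tle4* (59.1 to 65.3 CPM in *Wt*, 47.9 to 54.1 in KO; −0.25, adjusted p = 0.0037) and *Tle1* (−0.97, adjusted p = 0.0055), with a median of −0.2 against 0. With the GC trend removed *Tle4* was at 0.36 and −0.25, and *Tle3* in lung was at 0.08 (adjusted p = 0.43). Both spleen calls were lost in DESeq2 (adjusted p = 0.11 for *Tle1*, 0.1 for *Tle4*) and without the second spleen *Wt* library (0.11 and 0.26), and that of *Tle1* also without the second spleen KO library (−0.67, adjusted p = 0.35). *Tle3* in lung lost its call in DESeq2 (adjusted p = 0.06). Between organs, 1 was higher and 1 lower in lung *Wt*, and 3 were higher in lung KO, *Tle1* by the most (log2 fold change 2.32).

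Of 15 other corepressors, coactivators and modifiers of RUNX proteins, 14 were tested. In lung KO 2 rose and 4 fell. *Cbfa2t3*, an ETO-family corepressor, rose from 4.84 and 6.21 CPM to 23.3 and 22 CPM (log2 fold change 2.09, adjusted p = 1.3e-12), *Hipk2*, a kinase, rose (0.86, adjusted p = 0.019), and *Prmt1*, an arginine methyltransferase, fell (−0.39, adjusted p = 2.6e-08). In spleen KO 5 rose and 4 fell, among them *Cbfa2t3* (0.48, adjusted p = 0.0017), the acetyltransferase gene *Ep300* (0.33, adjusted p = 0.01) and the histone methyltransferase gene *Suv39h1* (−0.53, adjusted p = 2.3e-05). *Hipk2* lost its call in DESeq2 (adjusted p = 0.22), with the GC trend removed (0.62, adjusted p = 0.088), without the first lung *Wt* library (0.41, adjusted p = 0.44) and without the second lung KO library (0.36, adjusted p = 0.52). In spleen *Ep300* lost its call in DESeq2 (adjusted p = 0.23), without the first *Wt* library (0.27, adjusted p = 0.069) and without the second KO library (0.15, adjusted p = 0.62), and *Cbfa2t3* in DESeq2 (adjusted p = 0.067). The medians were 0 in lung and −0.05 in spleen, and in lung against spleen 4 were higher and 3 lower in *Wt*, and 4 higher and 2 lower in KO.

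Of 14 genes for factors or factor families that the study names for *Ccl5* regulatory DNA, all were tested. *Nfkb1*, *Rela*, *Jun* and *Cebpb* stand here for NFkB, AP-1 and C/EBP, which the study names without giving these genes. In lung KO 7 rose and 2 fell, led by *Irf4* (−2.48, adjusted p = 0.00071, with 2 and 3 reads in KO), *Cebpb* (1.95, adjusted p = 1.6e-11) and the AP-1 gene *Jund* (1.69, adjusted p = 1.7e-19). In spleen KO 4 rose and 6 fell, led by *Cebpb* (−2.67, adjusted p = 1e-08, with 2 and 20 reads in KO), *Jund* (−1.97) and *Jun* (−1.44). With the GC trend removed *Cebpb* was at 1.36 in lung and −2.28 in spleen and *Jund* at 1.1 and −1.57. *Irf4* in lung was then at −2.5 and *Jun* in spleen at −1.21, and all stayed called. The medians were 0.16 in lung and −0.06 in spleen. Between organs, 2 were higher and 6 lower in lung *Wt*, and 6 higher and 5 lower in lung KO.

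Genes that RUNX proteins are known to regulate in lymphocytes were counted last, with 13 of 18 tested. *Il4*, silenced by RUNX in T helper 1 cells, and *Cd4* had too few reads, with at most 3 and 7 per library. In lung KO 7 rose and 2 fell, with a median of 0.16. Besides *Ccl5*, *Tbx21*, which encodes the NK and T cell factor T-bet, rose from 216 and 221 CPM to 477 and 479 CPM (log2 fold change 1.13, adjusted p = 3.4e-22), and *Il2rb*, a receptor chain for IL-2 and IL-15, rose from 327 and 344 CPM to 758 and 785 CPM (1.21, adjusted p = 5.2e-24). With the GC trend removed *Tbx21* was at 0.73 in lung and −0.85 in spleen and *Il2rb* at 0.96 in lung, each still called. In spleen KO 5 rose and 5 fell, with a median of −0.01. There *Tbx21* fell from 341 and 330 CPM to 150 and 147 CPM (−1.18, adjusted p = 5.1e-22), and *Itgae*, the integrin chain CD103, rose (0.72, adjusted p = 0.0087), a call lost in DESeq2 (adjusted p = 0.18), without the second spleen *Wt* library (adjusted p = 0.064) and without the second spleen KO library (adjusted p = 0.18).

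Between organs, the chemokine genes led this list in *Wt*. *Ccl4* was at 888 and 827 CPM in lung *Wt* and 181 and 183 CPM in spleen *Wt* (log2 fold change 2.24, adjusted p = 9.5e-32), and *Ccl3* at 468 and 433 against 125 and 143 CPM (1.73, adjusted p = 4.9e-26). In all 8 were higher and 2 lower in lung *Wt* (median 0.23 against −0.01 over all genes), and 10 were higher and 2 lower in lung KO (median 0.7 against 0.02).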

How the data were processed

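RNA-seq was performed by the authors on 8 libraries of sorted NK cells (reads of 50 bp, HiSeq). Per the labels and methods, reads were aligned to mm10 with HISAT2 2.1.0 at default settings and counted per gene with HTSeq, version 0.11.1 in the submitters' processing notes. The authors deposited raw read counts per gene symbol. The annotation and strand setting are not given in the sources used here. HTSeq's categories of uncounted reads (those on no feature were 52.7 to 55.0% of uniquely aligned reads) were kept out of library sizes and tests.

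Counts entered edgeR 4.0.16 (R 4.3.3). The filter was filterByExpr, scaling was by TMM (factors 0.954 to 1.03), and the model gave each of the 4 groups its own mean over the 8 libraries together. Contrasts were tested by quasi-likelihood F tests, and p-values were adjusted by Benjamini-Hochberg across every gene that passed the filter. The method was tested on simulated data with changes larger than any fitted for the 4 genes, so small changes were not covered. Standard errors come from the F statistic, and intervals are 95%. A floor of 3 reads is 0.115 to 0.977 CPM, and counting errors cover counting only. The variance between the 2 libraries of a group was 1.23 to 1.48 times that of counting. Gene models were GENCODE M21, and 46979 symbols matched. The GC trend was removed by an offset from a spline with 5 degrees of freedom per library (GC known for 99.3% of genes tested). Alternatives were the likelihood ratio test, DESeq2 1.42.0, other scalings and filters, the 4 compared libraries alone, replicate number as a block, an assumed coefficient of variation of 0.2, and omission of each library. Named were the 4 genes, overlapping genes, up to 3 genes by fold change per list and comparison among those called, *Ccl5*, and the 3 genes most correlated with each member (1 of them is not reported here), besides genes named as examples after their values were seen (*Il4*, *Cd4*). Members and lists were chosen with earlier results of these data known, and the within-library ratios after seeing the data.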

Additional observations from a re-analysis of the deposited data

Results flagged for a closer look

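The genes below were singled out because the effect of the deletion differed between lung and spleen by the test of that difference (lung effect minus spleen effect on the log2 scale, edgeR FDR below 0.05), as it did for 61.6% of all genes tested. None of the 4 RUNX and CBFβ genes was among them. Of the TLE corepressors, the difference was 1.12 for *Tle1*, 0.63 for *Tle4* and 0.31 for *Tle3*. Of the other partners of RUNX proteins, it was 1.61 for *Cbfa2t3*, 1.29 for *Hipk2* and −0.61 for *Cbfa2t2*. Of the genes listed for *Ccl5* regulatory DNA, it was 4.62 for *Cebpb*, 3.67 for *Jund* and −3.44 for *Irf4*. The last had 1 to 62 reads per library. Of the genes known to be regulated by RUNX, it was 2.31 for *Tbx21*, 1.82 for *Il2rb* and −1.84 for *Itgae*. A pair of transcripts antisense to members were also in this group, Gm26626 (2.17), antisense to *Runx1*, and Gm16224 (−1.56), within *Runx3*, both with few reads. The GC trend of the libraries follows the same pattern of organ and genotype. With that trend removed *Tbx21* was at 1.58, *Jund* at 2.68 and *Tle4* at 0.61, each still called, whereas *Tle1* (0.76, adjusted p = 0.067) and *Tle3* (−0.07) were not. In DESeq2 *Tle1* (adjusted p = 0.12), *Tle3* (0.19) and *Hipk2* (0.15) were not called. Leaving out 1 library also ended the call of *Hipk2* (without the first lung *Wt*, the second lung KO or the second spleen *Wt* library, lowest value 0.79), of *Tle1* (without the second library of either spleen group, lowest value 0.81) and of *Tle3* (without either lung *Wt* library, the first lung KO, the first spleen *Wt* or the second spleen KO library).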

How the results depend on the processing

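Calls among the 4 genes moved as follows, and the cause was not tested. With the GC trend removed, with or without the replicate block, 2 genes were called in lung, 2 for the difference between organs, 3 in lung against spleen of *Wt* and 4 in lung against spleen of KO. DESeq2 called 1 gene in spleen and 1 in lung against spleen of KO, the fit without a count filter 1 in spleen, and a minimum of 10 counts in every library 1 for the difference. Library totals without scaling, which moved the median of all genes to 0.11 in lung and to 0.19 for the difference, called 2 for the difference and 2 in lung against spleen of *Wt*. An assumed coefficient of variation of 0.2 called 0 in spleen and 0 between organs in either genotype. Leaving out each library in turn gave 0 to 0 calls in lung, 0 to 2 in spleen, 0 to 1 for the difference, and 1 to 1 and 2 to 3 between organs in *Wt* and KO. In spleen the 0 was without the second *Wt* library and the 1 without the second KO library, and the call for the difference was made without the first spleen *Wt* library.

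Whether equal replicate numbers pair the libraries is not given in the sources used here. The deviations of equally numbered libraries correlated between −0.0766 and 0.169 across groups, and the replicate block left the counts at 0, 2, 0, 1 and 3. Libraries of a group varied little beyond counting (1.23 to 1.48 times its variance), so these correlations cannot exclude pairs. All genes called numbered 7000 in lung, 7195 in spleen, 7753 for the difference, and 7185 and 8259 between organs in *Wt* and KO, against 4507, 4165, 5324, 4790 and 5546 in DESeq2 and 1557, 1144, 2018, 2011 and 2316 with the assumed variation. Without the second spleen KO library, 4448 genes were called in spleen.

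Signs changed mostly near 0. With the GC trend removed, with or without the block, *Runx3* was at −0.29 in lung, 0.22 in spleen, −0.51 for the difference and 0.15 between organs in *Wt*, *Cbfb* at 0.01 in lung, and *Runx1* at 0.02, *Runx2* at −0.03, *Ccl5* at −0.3 and *Tle3* at −0.07 (−0.06 with the block) for the difference. With library totals *Runx1* and *Cbfb* were at 0.05 in lung and *Runx1* at 0.15 for the difference. *Runx3* was at 0.01 in spleen with the assumed variation, and *Cbfb* at 0.01 between organs in *Wt* in DESeq2 and with RLE scaling. Leaving out libraries, *Runx3* ranged from −0.03 to 0.1 in lung, −0.08 to 0.09 in spleen, −0.07 to 0.11 for the difference and −0.11 to 0.07 between organs in *Wt*, *Runx1* from −0.07 to 0.01 in spleen and −0.05 to 0.02 for the difference, *Cbfb* from −0.05 to 0.04 between organs in *Wt*, and *Ccl5* from −0.02 to 0.12 for the difference. Over the members' alternatives, 332 values kept their side of the threshold without a change of sign and 18 lost a call. Another 15 gained a call without a change of sign and 31 changed sign, 6 of these with a call (*Runx3*). Values that round to 0 were counted as no change of sign. The ratio of *Runx3* to *Runx1* in spleen over lung was 1.38 with the GC trend removed, an alternative chosen after seeing the data. The level of this ratio within a library also depended on the gene length used. With 2 libraries per group, depth limits *Runx2* most.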
